A study of Mus musculus with 52 samples.

Results

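The 24 h experiment of the series asked how prostaglandin E2 (PGE2) and the TLR3 ligand poly I:C act together on the transcripts of conventional type 1 dendritic cells (cDC1), and its 2 by 2 layout is described here gene by gene. The members were the 16 libraries at 24 h of the 52 in the series. Their 4 groups of 4 libraries, lettered A to D in the labels, were PGE2 with poly I:C, poly I:C alone, PGE2 alone and untreated cells, in what follows PGE2+poly I:C, poly I:C, PGE2 and untreated cells. PGE2 was present at 100 ng/ml for 24 h, and poly I:C, a synthetic double-stranded RNA, at 10 ug/ml for the last 4 h. All 4 groups were CD103+ cells sorted from C57BL/6J bone marrow that had been cultured with FLT3 ligand and GM-CSF, so every group, untreated cells included, carried those growth factors. No genotype differed between the groups, and the age of the mice is not stated in the sources used here. The cells are cultured cDC1, a model without tissue or tumour around them. Each library is a bulk sample, so that fewer cells of a type and less RNA per cell cannot be told apart.

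PGE2 is a lipid made by cyclooxygenases. Its receptors EP2 and EP4 raise cyclic AMP (cAMP), and in dendritic cells it is known both for promoting migration and for restraining inflammatory output. Poly I:C is sensed in endosomes by TLR3, which cDC1 carry at high levels, and signals through IRF3 and NF-kB to interferons, cytokines and the maturation programme. An interaction means that the PGE2 effect under poly I:C differed from the PGE2 effect without it, which is the same quantity as the difference between the poly I:C responses of PGE2-treated and untreated cells.

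The cells carried transcripts of the cDC1 markers Xcr1, Clec9a, Irf8, Batf3, Itgae, Cadm1, Wdfy4, Naaa, Flt3 and Itgax in all 4 groups. Clec9a, the receptor for dead cells, was at 0 in 1 library (PGE2+poly I:C A). Library totals ran from 186537 (PGE2 D) to 405098 counts of unique molecular identifiers (UMIs), with a median of 319971. The TMM scaling factors were 0.739 to 0.786 in the 8 libraries with poly I:C and 1.28 to 1.33 in the 8 without. Levels are given as CPM, counts relative to the TMM-scaled library total, with the SD over 4 libraries. The labels call the libraries biological replicates without naming separate cultures or animals, so the p-values speak only for the spread among these libraries, part of which may be technical. Markers of granulocytes and mast cells summed to at most 7.88 CPM in any library. Lymphocyte markers summed to 26.0 to 41.8 CPM in PGE2+poly I:C cells, 9.77 to 34.0 in poly I:C cells, 90.6 to 139 in PGE2 cells and 99.5 to 115 in untreated cells. Of the 17 on that list 11 were in the table, 4 of those had no count, and 1 was tested and not called. Markers of cDC2 summed to 52.3 to 55.7 CPM in PGE2+poly I:C cells, 11.3 to 31.5 in poly I:C cells, 177 to 225 in PGE2 cells and 87.1 to 145 in untreated cells, and those of plasmacytoid dendritic cells to 774 to 1065, 520 to 698, 117 to 156 and 110 to 171 CPM in the same 4 groups. Only 2 of the 14 cDC2 markers and 2 of the 14 plasmacytoid markers were tested, and none was called for the interaction. With 3.27% called over all genes tested, no call among so few says little. The part of such cells in the results below was not tested.

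PGE2 changed 561 of 5263 tested genes under poly I:C (10.7%; 265 or 5.04% higher and 296 or 5.62% lower) and 423 without it (8.04%; 250 or 4.75% higher and 173 or 3.29% lower), by edgeR's quasi-likelihood test with Benjamini-Hochberg adjusted p of at most 0.05. The difference between those effects, the interaction, passed for 172 genes (3.27%). It was positive for 45 genes (0.855%) and negative for 127 (2.41%), and 49 of the 172 reached 1.5 on the log2 scale, the size threshold in the labels. The 4 libraries with PGE2 lay wholly above the 4 without it for 7.07% of tested genes under poly I:C and for 6.35% without it, and wholly below for 6.80% and 5.02%. Without an adjustment, 752 genes had a p below 0.05. Poly I:C itself moved most of the transcriptome, with 3410 genes called in PGE2-treated cells (64.8%; 1619 or 30.8% higher and 1791 or 34.0% lower) and 3421 in untreated cells (65.0%; 1640 or 31.2% higher and 1781 or 33.8% lower). Scaling by library totals alone changed that split to 888 higher and 3079 lower in PGE2-treated cells and to 974 higher and 3081 lower in untreated cells. Under that scaling the median of all poly I:C responses was -0.88 in both arms, against -0.11 and -0.10 with TMM, so the poly I:C responses below are relative to the TMM scaling. The interaction split under library totals was 47 positive and 128 negative.

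The poly I:C responses of the PGE2-treated and untreated arms, which share no libraries, had a Pearson r of 0.92 over 5263 genes, which are not independent replicates. Of the genes that poly I:C raised in PGE2-treated cells, 85.3% were also raised in untreated cells, and 84.2% the other way round. Of those it lowered, 81.3% in the PGE2-treated arm and 81.8% in the untreated arm were shared. In opposite directions, 12 genes were called. The 172 interaction genes were sorted on group means: blunted where the poly I:C response was smaller in PGE2-treated than in untreated cells, synergistic where it was larger, and reversed where the signs differed and both sizes were at least 0.5 on the log2 scale. There were 117 blunted genes (96 induced and 21 repressed by poly I:C), 44 synergistic genes (17 induced and 27 repressed) and 11 reversed genes, induced or repressed going by the arm with the larger response. These classes were read from the same means as the interaction, so they describe the genes called and are no result of their own.

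**Figure D1:**
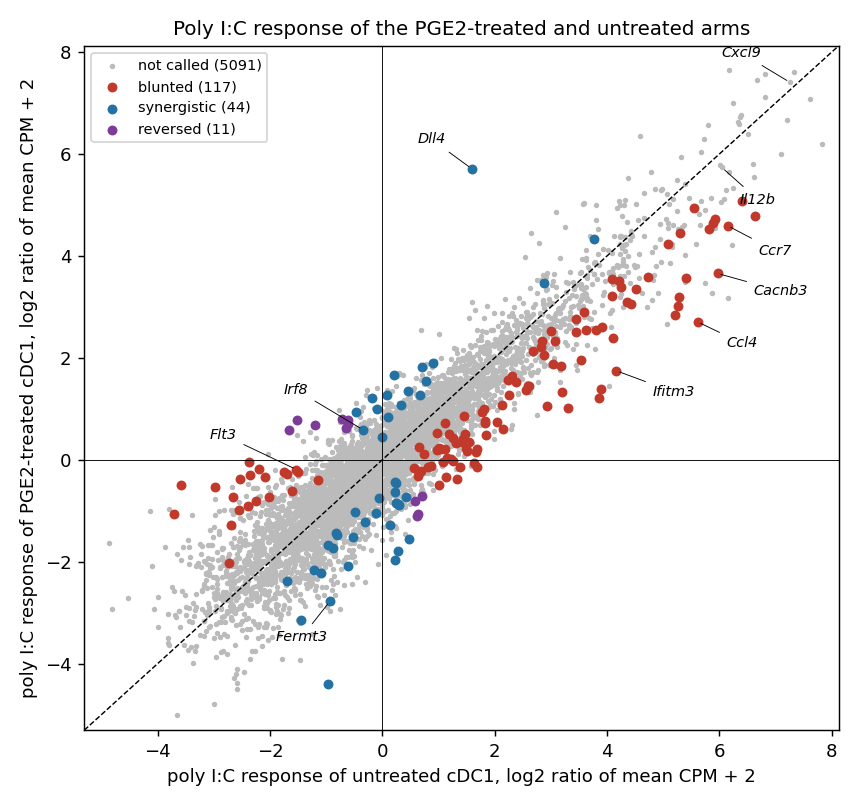
Poly I:C response of PGE2-treated cDC1 (vertical axis) against that of untreated cDC1 (horizontal axis), each a log2 ratio of group mean CPM + 2; grey points are genes not called for the interaction, coloured points the 117 blunted, 44 synergistic and 11 reversed genes, and the dashed line marks equal responses. Most coloured points with a large response lie below the line on the right, as Ccr7, Cacnb3, Ccl4 and Ifitm3 do, while Cxcl9 and Il12b lie near it.

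The same genes read differently from the side of PGE2. Of the 96 blunted genes induced by poly I:C, 51 had a PGE2 effect that was smaller under poly I:C than without it. In 35 the PGE2 effect was larger under poly I:C. By the sorting rule the means of those 35 had to be lower in PGE2+poly I:C than in poly I:C cells, and all 35 were called lower. The rule likewise put the means of the 51 higher in PGE2 than in untreated cells, so these directions are no result of their own. The remaining 10 had PGE2 effects of opposite sign. In the set of 51, the median PGE2 effect was 0.05 under poly I:C and 1.25 without it, 48 were called higher in PGE2 than in untreated cells, and 17 were called higher and 4 lower in PGE2+poly I:C than in poly I:C cells. In the set of 35, the median PGE2 effect was -0.81 under poly I:C and 0.17 without it, and 1 was called without poly I:C. The first set thus holds mainly genes that PGE2 raised at rest and that poly I:C raised in both arms, and the second holds genes whose PGE2 effect was called mainly under poly I:C. The sign in the first set depended on the scale. As a difference of mean CPM, 20 of the 51 had an interaction of the opposite sign. In the 35 the sorting rule leaves no room for an opposite sign. Among the 20 were the leading examples below, Ifitm3, Ccr7, Fscn1, Cacnb3, Socs2, Ccl22, Ccnd2, Apol7c, Bhlhe40, Relb, Pde4b, Gadd45b, H2-K1 and the Bcl2a1 paralogs, so their negative interactions are differences of ratios, not of CPM.

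**Figure D2:**
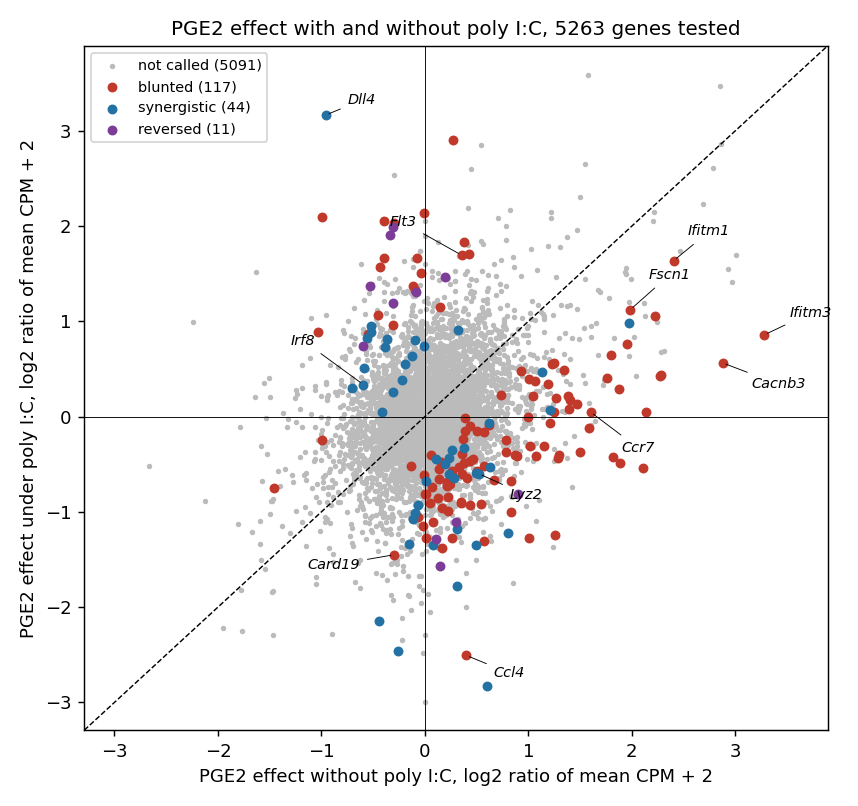
PGE2 effect under poly I:C (vertical axis, PGE2+poly I:C against poly I:C cells) against the PGE2 effect without it (horizontal axis, PGE2 against untreated cells), both as log2 ratios of group mean CPM + 2, with classes coloured by the poly I:C responses and a dashed line at equal effects. Ifitm3, Cacnb3, Ccr7 and Fscn1 lie far to the right and below the line, Ccl4 and Card19 lie low near a horizontal value of 0, and Flt3, Irf8 and Dll4 lie above the line.

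Genes of maturation were among the first kind. Of the 31 tested genes on a list of maturation and costimulation, 7 were called for the interaction, all negative, beside 2.41% negative over all genes tested, and the list's median interaction was -0.64, against -0.04 over all genes tested. PGE2 alone called 15 of the 31 higher and none lower, and under poly I:C it called 12 higher and 1 lower. With PGE2 alone 4.75% of all genes tested were higher and 3.29% lower, and under poly I:C 5.04% and 5.62%. Ccr7, on chromosome 11 (GRCm38 chr11:99144196-99155077, minus strand, GENCODE), encodes the receptor that guides dendritic cells to lymph nodes. Ccr7 had 8729.9, 7966, 7557 and 7132 CPM in PGE2+poly I:C cells, against 8068, 8166, 7566 and 6558 CPM in poly I:C cells. The 2 groups overlapped, and the PGE2 effect under poly I:C was 0.05 (log2, adjusted p = 0.797). Without poly I:C, Ccr7 had 381, 290.0, 332 and 288 CPM in PGE2 cells and 100.4, 79.1, 99.5 and 141 CPM in untreated cells. All PGE2 cells lay above all untreated cells, with a PGE2 effect of 1.64 (adjusted p = 1.82e-23). The interaction was -1.59 on the log2 scale (SE 0.15, adjusted p = 7e-17).

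Fscn1, which encodes the actin-bundling protein fascin of mature dendritic cells, had 2041, 1780.1, 1850.0 and 1695 CPM in PGE2+poly I:C cells and 780.5, 684, 961 and 955 CPM in poly I:C cells. It had 259, 198, 199 and 126 CPM in PGE2 cells and 41.6, 30.6, 56.1 and 63.0 CPM in untreated cells. In contrast to Ccr7, no library overlapped in either pair, with PGE2 effects of 1.11 under poly I:C and 2.08 without it, and an interaction of -0.97 (SE 0.22, adjusted p = 0.00264). Cacnb3, a calcium channel subunit and marker of migratory dendritic cells, had 1251, 916, 718 and 918 CPM in PGE2+poly I:C cells and 683, 513, 721 and 653 CPM in poly I:C cells. Its levels without poly I:C were 95.8, 64.2, 71.0 and 62.9 CPM in PGE2 cells and 4.90, 7.65, 2.55 and 18.01 CPM in untreated cells. Under poly I:C the ranges overlapped at 1 library of each group, and without it the PGE2 libraries were all far above the untreated ones, giving PGE2 effects of 0.56 (adjusted p = 0.000273) and 3.18 (adjusted p = 1.32e-13) and an interaction of -2.61 (SE 0.39, adjusted p = 1.32e-07).

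Socs2, a feedback inhibitor of cytokine receptors, averaged 480.2 ± 65.5 CPM in PGE2+poly I:C and 356 ± 73.8 in poly I:C cells. Socs2 without poly I:C averaged 38.8 ± 5.51 CPM in PGE2 and 6.44 ± 3.15 in untreated cells (SD, n = 4 each, here and below), with an interaction of -2.08 (adjusted p = 0.00141). Ccl22, a chemokine that attracts regulatory T cells, averaged 8512 ± 739.6 CPM in PGE2+poly I:C and 6464 ± 682 in poly I:C cells. Ccl22 without poly I:C averaged 276 ± 27.2 CPM in PGE2 and 136 ± 33.3 in untreated cells. Its interaction was -0.65 (adjusted p = 0.00234), and the call was lost with no filter on low counts (adjusted p = 0.0722) and in the fit over all 52 libraries (adjusted p = 0.117). Ccnd2, cyclin D2, rose with PGE2 in both settings, to 5651 ± 256 CPM against 4028 ± 308 in poly I:C cells and to 256 ± 47.2 CPM against 99.8 ± 15.7 in untreated cells, with an interaction of -0.89 (adjusted p = 3.6e-05). Several genes of this kind were outside the naming rule and were picked after their values were seen. Apol7c, a member of the apolipoprotein L family, averaged 1506 ± 97.7 CPM in PGE2+poly I:C and 1111 ± 94.5 in poly I:C cells. Apol7c without poly I:C averaged 52.3 ± 6.89 CPM in PGE2 and 9.19 ± 2.48 in untreated cells (interaction -2.03, adjusted p = 2.05e-05). Bhlhe40, a transcription factor, had an interaction of -1.41 (adjusted p = 9.72e-05) and Il2rg, the common gamma chain of cytokine receptors, one of -2.34 (adjusted p = 0.00148).

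Of 28 tested NF-kB subunits and targets, 5 were called negative for the interaction and 1 positive, beside 2.41% and 0.855% of all genes tested. PGE2 called 10 of them higher and none lower in either setting, where 5.04% of all genes were higher under poly I:C and 4.75% without it. Traf1, a signalling adaptor and NF-kB target, averaged 2221 ± 111 CPM in PGE2+poly I:C and 2328 ± 84.2 in poly I:C cells. Traf1 without poly I:C averaged 93.9 ± 16.8 CPM in PGE2 and 39.5 ± 5.99 in untreated cells, with an interaction of -1.32 (adjusted p = 1.1e-05). Relb, a subunit of the alternative pathway that is outside the naming rule, had an interaction of -0.88 (adjusted p = 0.0144). Its call was lost without PGE2 library A (adjusted p = 0.0848), PGE2 library B (adjusted p = 0.0528) or untreated library D (adjusted p = 0.0756) and with no filter on low counts (adjusted p = 0.132) and in the fit over all 52 libraries (adjusted p = 0.0685). Birc3, an inhibitor of apoptosis, averaged 144 ± 17.4 CPM in PGE2+poly I:C and 195 ± 21.8 in poly I:C cells. Birc3 without poly I:C averaged 26.0 ± 13.3 CPM in PGE2 and 9.47 ± 5.60 in untreated cells. Its interaction of -1.85 (adjusted p = 0.0165) was not called without PGE2 library B (adjusted p = 0.149) or untreated library A (adjusted p = 0.0937) and with no filter on low counts (adjusted p = 0.0858). The paralogs Bcl2a1b and Bcl2a1a, survival proteins of the BCL2 family whose reads the counting could have split, had interactions of -1.36 (adjusted p = 0.0187) and -1.29 (adjusted p = 0.0466). The Bcl2a1b call was lost without PGE2 library C (adjusted p = 0.0654) or untreated library A (adjusted p = 0.122) and with no filter on low counts (adjusted p = 0.104) and in the fit over all 52 libraries (adjusted p = 0.0622), and the Bcl2a1a call in 11 of 16 fits without 1 library (adjusted p up to 0.163, without untreated library B) and in 5 of 7 other settings (up to 0.206, with no filter on low counts).

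On the apoptosis and survival list, 4 of 19 tested members were called, all negative, beside 2.41% negative over all genes tested. Besides the BCL2A1 paralogs these were Mcl1, a survival protein, at -0.65 (adjusted p = 0.00811) and Bak1, a pore-forming killer, at -1.05 (adjusted p = 0.0415), so members that protect and 1 that kills moved alike. Mcl1 lost its call without poly I:C library A (adjusted p = 0.0571) and with no filter on low counts (adjusted p = 0.151) and in the fit over all 52 libraries (adjusted p = 0.0588), and Bak1 in 11 of 16 fits without 1 library (adjusted p up to 0.165, without PGE2+poly I:C library D) and in 4 of 7 other settings (up to 0.211, with no filter on low counts). Of 25 tested cell stress genes, 2 were called negative and 1 positive, beside 2.41% and 0.855% of all genes tested. Gadd45b, a stress-response gene, had an interaction of -1.33 (adjusted p = 0.000369) that was lost in the fit over all 52 libraries (adjusted p = 0.226). Sqstm1, an autophagy receptor, stood at -0.70 (adjusted p = 0.0325) and was lost in 9 of 16 fits without 1 library (adjusted p up to 0.147, without untreated library B) and in 3 of 7 other settings (up to 0.252, with no filter on low counts). Of 23 tested genes of cytokine feedback 2 were called, both negative, beside 2.41% negative over all genes tested. These were Socs2 and Il10ra, the interleukin-10 receptor chain, with Il10ra at -1.21 (adjusted p = 0.0368). Il10ra lost its call in 9 of 16 fits without 1 library (adjusted p up to 0.21, without poly I:C library C) and in 3 of 7 other settings (up to 0.157, with no filter on low counts).

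The cAMP and CREB target list had 15 tested members, of which PGE2 called 5 higher and 3 lower under poly I:C, and 5 higher and none lower without it. The shares over all genes tested were 5.04% higher and 5.62% lower under poly I:C, and 4.75% and 3.29% without it. For the interaction 1 of the 15 was called, a count near the 3.27% called over all genes tested. It was Pde4b, a phosphodiesterase that degrades cAMP. Pde4b averaged 302 ± 52.2 CPM in PGE2+poly I:C and 144 ± 38.8 in poly I:C cells. Pde4b without poly I:C averaged 109.6 ± 35.9 CPM in PGE2 and 21.9 ± 9.04 in untreated cells. PGE2 raised it in both settings, and the interaction of -1.27 (adjusted p = 0.0183) was lost without poly I:C library C (adjusted p = 0.12), PGE2 library B (adjusted p = 0.0758), untreated library C (adjusted p = 0.0752) or untreated library D (adjusted p = 0.0546) and with no filter on low counts (adjusted p = 0.0916) and in the fit over all 52 libraries (adjusted p = 0.0507).

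Interferon-induced transmembrane genes gave the smallest p-value of the comparison. Ifitm3 (chr7:141009586-141010770, minus strand), whose protein blocks virus entry, had 4777, 5040.0, 5184 and 4589 CPM in PGE2+poly I:C cells and 2590.2, 3023, 2501 and 2694 CPM in poly I:C cells. It had 1768, 1463, 1227 and 1371 CPM in PGE2 cells and 166, 122, 128 and 177 CPM in untreated cells. PGE2 cells without any poly I:C thus stood far above untreated cells, and PGE2+poly I:C cells above poly I:C cells, with no overlap in either pair. The PGE2 effect was 0.86 (adjusted p = 7.47e-17) under poly I:C and 3.30 (adjusted p = 1.92e-68) without it, and the interaction was -2.44 (SE 0.14, adjusted p = 1.81e-36). As a difference of mean CPM the sign was the opposite, PGE2 adding 886 CPM more under poly I:C than without it. Its paralogs Ifitm2 and Ifitm1, which may share reads with it, followed. Ifitm2 averaged 1471 ± 139 CPM in PGE2+poly I:C and 869 ± 146 in poly I:C cells. Ifitm2 without poly I:C averaged 1156 ± 65.7 CPM in PGE2 and 296 ± 37.6 in untreated cells (interaction -1.19, adjusted p = 2.11e-10). Ifitm1 averaged 7084 ± 498 CPM in PGE2+poly I:C and 2278 ± 192 in poly I:C cells. Ifitm1 without poly I:C averaged 6014 ± 272 CPM in PGE2 and 1136 ± 23.03 in untreated cells (interaction -0.77, adjusted p = 4.3e-08). In other libraries of the series, taken after 4 h, PGE2 raised Ifitm3 by 2.00, Ifitm2 by 1.93 and Ifitm1 by 1.65 on the log2 scale.

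The 4 h libraries share none of the 16 used here and had no poly I:C. They bear on the PGE2 effect at rest and not on the interaction. Of the 51 blunted genes whose PGE2 effect was smaller under poly I:C, 48 were already called higher with PGE2 alone at 24 h. Of the same 51, 45 were tested at 4 h, and 26 were higher in PGE2-treated than in untreated cells and none lower. Over all genes tested at 4 h, 5.22% were higher and 3.33% lower. Their median PGE2 effect at 4 h was 0.94. In medium of control melanoma cells against medium of melanoma cells lacking Ptgs1 and Ptgs2, the cyclooxygenase genes, 17 of the 45 were higher and none lower, with 2.33% higher and 1.51% lower over all genes. The median there was 0.51. Of the 35 blunted genes that PGE2 lowered under poly I:C, all were tested at 4 h, and PGE2 called 4 higher and 3 lower. Ccr7 itself was not called at 4 h, with a PGE2 effect of 0.50 (adjusted p = 0.274), and neither was Fscn1, at -0.34 (adjusted p = 0.751).

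**Figure D3:**
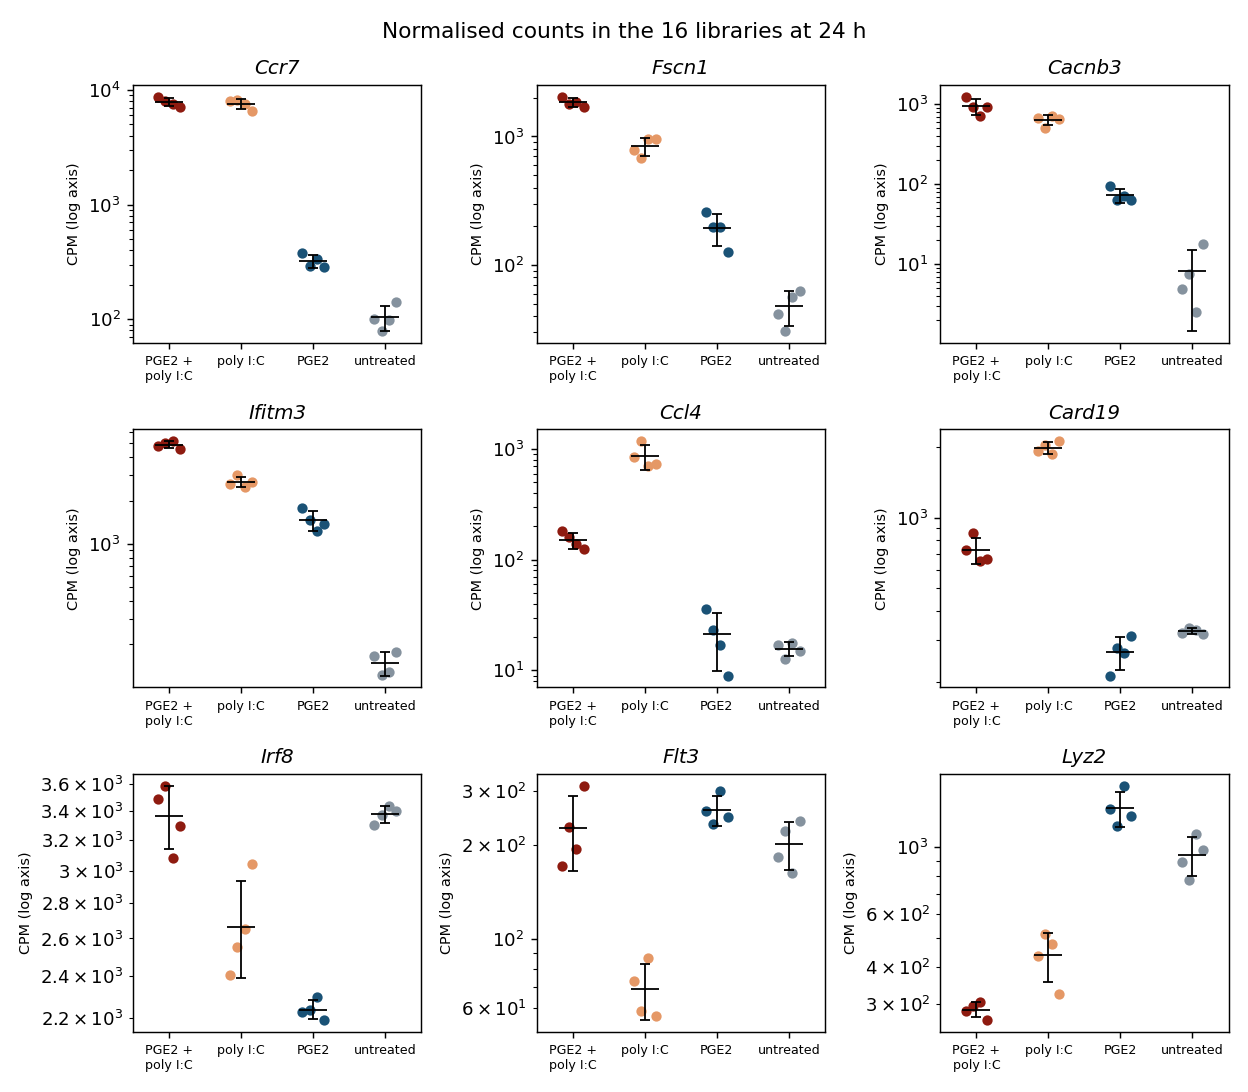
CPM of 9 genes in each of the 16 libraries (points; log axis), with the mean and SD of the 4 libraries of a group as black bars. Ccr7, Fscn1, Cacnb3 and Ifitm3 differ more between PGE2 and untreated cells than between PGE2+poly I:C and poly I:C cells, Ccl4 and Card19 differ under poly I:C, and Irf8 is lower in PGE2 than in untreated cells but higher in PGE2+poly I:C than in poly I:C cells.

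Blunting was also called in genes with no called PGE2 effect at rest. Ccl4 (chr11:83662584-83664683, plus strand), a chemokine for T cells, NK cells and monocytes, had 179.9, 159, 138 and 125 CPM in PGE2+poly I:C cells and 849, 1177, 701 and 728 CPM in poly I:C cells. Every PGE2+poly I:C library lay below every poly I:C library. Without poly I:C, Ccl4 had 36.2, 23.1, 17.1 and 8.99 CPM in PGE2 cells and 17.1, 12.8, 17.9 and 15.0 CPM in untreated cells, which overlapped. The PGE2 effect was -2.52 (adjusted p = 1.56e-32) under poly I:C and 0.53 (adjusted p = 0.536) without it, with an interaction of -3.04 (SE 0.45, adjusted p = 1.3e-07). Of the 9 tested chemokines 3 were called, all negative, beside 2.41% negative over all genes tested. They were Ccl4, Ccl22 and Cxcl16, a membrane-bound chemokine. Cxcl16 differed little, at 2838 ± 169.9 CPM in PGE2+poly I:C and 3031 ± 316 in poly I:C cells. Cxcl16 without poly I:C averaged 239.6 ± 31.9 CPM in PGE2 and 176 ± 28.5 in untreated cells (interaction -0.55, adjusted p = 0.0278). The Cxcl16 call was lost in 8 of 16 fits without 1 library (adjusted p up to 0.11, without PGE2 library A) and with no filter on low counts (adjusted p = 0.323) and in the fit over all 52 libraries (adjusted p = 0.137).

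Several abundant genes outside the naming rule, picked after their values were seen, were also lower in PGE2+poly I:C than in poly I:C cells. Card19, a mitochondrial CARD-domain protein, had 728, 860.4, 656 and 665 CPM in PGE2+poly I:C cells and 1927, 2041, 1871 and 2121 CPM in poly I:C cells. It had 212, 277, 264 and 315 CPM in PGE2 cells and 323, 339, 332 and 318 CPM in untreated cells. All libraries with PGE2 lay below all without it in both settings, by far under poly I:C and narrowly at rest. The PGE2 effect was -1.45 under poly I:C, while that of -0.32 at rest was not called (adjusted p = 0.11), and the interaction was -1.13 (adjusted p = 4.19e-08). Polr2g, a subunit of RNA polymerase II, averaged 510.1 ± 67.0 CPM in PGE2+poly I:C and 1100.1 ± 99.3 in poly I:C cells. Polr2g without poly I:C averaged 196 ± 47.0 CPM in PGE2 and 186 ± 35.3 in untreated cells (interaction -1.21, adjusted p = 1.03e-06). Gpx1, a glutathione peroxidase that removes peroxides, averaged 1072 ± 139.6 CPM in PGE2+poly I:C and 2005 ± 133 in poly I:C cells. Gpx1 without poly I:C averaged 1342 ± 112 CPM in PGE2 and 1298 ± 58.4 in untreated cells (interaction -0.95, adjusted p = 6.3e-09). Lgals3, galectin-3, crossed over. It was lower in PGE2+poly I:C cells (7888 ± 372 CPM) than in poly I:C cells (11707 ± 1382) and higher in PGE2 cells (6169 ± 458) than in untreated cells (4353 ± 189), with an interaction of -1.07 (adjusted p = 4.86e-17). Myd88, the adaptor of most Toll-like receptors other than TLR3, averaged 581 ± 53.8 CPM in PGE2+poly I:C and 837 ± 90.3 in poly I:C cells. Myd88 without poly I:C averaged 201 ± 46.4 CPM in PGE2 and 159 ± 38.9 in untreated cells (interaction -0.84, adjusted p = 0.00384).

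Pkm, pyruvate kinase, was the 1 called of 14 tested genes of glycolysis and hypoxia, beside 3.27% called over all genes tested. It averaged 796 ± 63.7 CPM in PGE2+poly I:C and 1108 ± 57.1 in poly I:C cells. Pkm without poly I:C averaged 734 ± 77.0 CPM in PGE2 and 657 ± 60.3 in untreated cells (interaction -0.63, adjusted p = 0.00279), and the call was lost with no filter on low counts (adjusted p = 0.108). Nampt, which makes an NAD precursor, averaged 358 ± 42.3 CPM in PGE2+poly I:C and 586 ± 41.2 in poly I:C cells. Nampt without poly I:C averaged 61.4 ± 21.2 CPM in PGE2 and 51.5 ± 20.5 in untreated cells (interaction -0.95, adjusted p = 0.0444). Nampt lost its call in 10 of 16 fits without 1 library (adjusted p up to 0.302, without PGE2 library C) and in 5 of 7 other settings (up to 0.211, with no filter on low counts). The other blunted genes of largest size were Mmp25, a membrane-type matrix metalloproteinase, Arid5a, an RNA-binding protein that stabilises inflammatory transcripts, Sdc4, a heparan sulfate proteoglycan, and Adap2, a GTPase-activating protein. Mmp25 averaged 376 ± 27.3 CPM in PGE2+poly I:C and 506 ± 61.8 in poly I:C cells. Mmp25 without poly I:C averaged 44.8 ± 4.52 CPM in PGE2 and 11.2 ± 5.34 in untreated cells (interaction -2.41, adjusted p = 1.9e-06). Arid5a averaged 89.3 ± 25.6 CPM in PGE2+poly I:C and 131 ± 42.0 in poly I:C cells. Arid5a without poly I:C averaged 37.6 ± 15.7 CPM in PGE2 and 7.16 ± 4.24 in untreated cells (interaction -2.88, adjusted p = 3.89e-05). Sdc4, at 7.73 ± 5.06 CPM in PGE2 and 0.64 ± 1.27 in untreated cells, where it held 1 count in all, is given without a fold, and its call (adjusted p = 0.04) was lost in 8 of 16 fits without 1 library (adjusted p up to 0.203, without PGE2 library C) and in 4 of 7 other settings (up to 0.159, with no filter on low counts). Adap2 held 3 counts in untreated cells, and its call (adjusted p = 0.0466) was lost in 12 of 16 fits without 1 library (adjusted p up to 0.122, without untreated library A) and in 4 of 7 other settings (up to 0.151, with no filter on low counts).

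Among the 21 blunted genes that poly I:C lowered, PGE2 under poly I:C was called higher for 15 and lower for 1. Over all genes tested, 5.04% were higher and 5.62% lower. The sorting rule selects these genes for a higher PGE2 effect under poly I:C than without it, so the counts are no result of their own. Flt3 (chr5:147330741-147400489, minus strand), the receptor for the growth factor on which these cells were grown, had 172, 229.9, 195 and 311 CPM in PGE2+poly I:C cells and 73.2, 58.6, 86.7 and 56.6 CPM in poly I:C cells. It had 259, 234, 298 and 247 CPM in PGE2 cells and 184, 222, 163 and 240.2 CPM in untreated cells. All PGE2+poly I:C libraries lay above all poly I:C libraries, while the groups without poly I:C overlapped. The PGE2 effect was 1.74 (adjusted p = 5.52e-11) under poly I:C and 0.37 (adjusted p = 0.161) without it, and the interaction was 1.37 (SE 0.28, adjusted p = 0.000271). Spi1, which encodes the myeloid transcription factor PU.1, was picked after its values were seen and had the same pattern, at 426 ± 80.6 CPM in PGE2+poly I:C and 191 ± 43.6 in poly I:C cells. Spi1 without poly I:C averaged 653 ± 48.6 CPM in PGE2 and 588 ± 44.5 in untreated cells (interaction 1.02, adjusted p = 5.32e-05).

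The repressed genes of largest interaction were scarce. Strbp, an RNA-binding protein, held 1 count in poly I:C cells and is given in CPM only, at 11.7 ± 14.9 in PGE2+poly I:C and 1.22 ± 2.44 in poly I:C cells. Strbp without poly I:C averaged 17.4 ± 6.47 CPM in PGE2 and 36.5 ± 19.01 in untreated cells. Its call (adjusted p = 0.0325) was lost in 6 of 16 fits without 1 library (adjusted p up to 0.34, without PGE2+poly I:C library C) and with no filter on low counts (adjusted p = 0.0764). Ppfia1, a liprin scaffold protein, also held 1 count in poly I:C cells, at 22.2 ± 6.67 CPM in PGE2+poly I:C and 1.22 ± 2.44 in poly I:C cells. Ppfia1 without poly I:C averaged 48.9 ± 7.93 CPM in PGE2 and 40.1 ± 8.38 in untreated cells, and its call (adjusted p = 0.0157) was lost without poly I:C library C (adjusted p = 0.056) or poly I:C library D (adjusted p = 0.0597) and with no filter on low counts (adjusted p = 0.0557). Mier2, a transcriptional repressor, averaged 25.3 ± 7.12 CPM in PGE2+poly I:C and 4.60 ± 4.02 in poly I:C cells. Mier2 without poly I:C averaged 37.8 ± 8.28 CPM in PGE2 and 50.1 ± 9.47 in untreated cells (interaction 2.85, adjusted p = 0.0124), and was lost without poly I:C library C (adjusted p = 0.0562). Naaa, a lysosomal amidase and cDC1 marker, was lowered by PGE2 in both settings, with 108 ± 19.4 CPM in PGE2+poly I:C and 184 ± 25.4 in poly I:C cells. Naaa without poly I:C averaged 445 ± 49.3 CPM in PGE2 and 1227 ± 64.8 in untreated cells. Its interaction of 0.73 (adjusted p = 0.0417) was lost in 11 of 16 fits without 1 library (adjusted p up to 0.155, without PGE2+poly I:C library D) and in 3 of 7 other settings (up to 0.132, with no filter on low counts).

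Irf8 (chr8:120736358-120756694, plus strand), the transcription factor that specifies cDC1, was called in opposite directions by PGE2 in the presence and absence of poly I:C. It had 3489, 3589.9, 3082 and 3297 CPM in PGE2+poly I:C cells and 2405, 2554, 2651 and 3045 CPM in poly I:C cells. Without poly I:C it had 2224, 2238, 2299 and 2189 CPM in PGE2 cells and 3301, 3375, 3440.0 and 3402 CPM in untreated cells. PGE2+poly I:C libraries were all above poly I:C libraries, and PGE2 libraries all below untreated ones. The PGE2 effect was 0.34 (adjusted p = 0.00114) under poly I:C and -0.59 (adjusted p = 4.59e-10) without it, and the interaction was 0.93 (SE 0.11, adjusted p = 4.58e-11). The poly I:C response was 0.59 in PGE2-treated cells and -0.34 in untreated cells. At 4 h, PGE2 without poly I:C lowered Irf8 by a log2 effect of -0.79 (adjusted p = 1.47e-09).

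Irf8, Flt3 and Naaa were the 3 called of 26 tested genes of cDC1 identity, all positive, beside 0.855% positive over all genes tested. The median of that list was 0.33 for the interaction, against -0.04 over all genes tested. PGE2 called 5 of the 26 higher and 5 lower under poly I:C, and 2 higher and 9 lower without it. Over all genes tested, 5.04% were higher and 5.62% lower under poly I:C, and 4.75% and 3.29% without it. Xcr1, the chemokine receptor that defines cDC1, averaged 69.2 ± 13.3 CPM in PGE2+poly I:C and 163 ± 17.7 in poly I:C cells. Xcr1 without poly I:C averaged 65.7 ± 12.5 CPM in PGE2 and 214 ± 27.4 in untreated cells. PGE2 lowered Xcr1 in both settings, and its interaction of 0.44 had a 95% interval of -0.18 to 1.06. Batf3, the partner factor of Irf8 in cDC1, had an interaction of 0.86 (95% interval 0.25 to 1.47, adjusted p = 0.117), and Clec9a one of 1.01 (-0.45 to 2.47). Plet1, a surface protein, is a contrast to these: PGE2 raised it by 1.09 under poly I:C and by 1.14 without it, and the interval of its interaction was -0.33 to 0.23.

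Promoters are shown for 2 blunted and 2 synergistic genes. They had the smallest interaction p among those genes that were fixed or named for the size of their interaction. Only genes with an entry in the RefSeq promoter table (GRCm38.p6) were used, with Lmnb1 left out. Motifs linked to interferon, cAMP and NF-kB are marked in place, and whether those pathways act on these promoters was not tested. Each runs 5′ to 3′ on the strand of the gene, from 250 bases before to 50 after the start. Capitals mark matches on either strand to GAAANNGAAA, a core of the interferon-stimulated response element, to TGACG, the short core of the cAMP response element that also lies inside its full palindrome TGACGTCA, and to GGGNNNNNCC, a loose kappa B site; matches may overlap. The regions are chr7:141010695-141010994 on the minus strand for Ifitm3, chr15:98632078-98632377 on the plus strand for Cacnb3, chr8:120736108-120736407 on the plus strand for Irf8 and chr10:13500778-13501077 on the plus strand for Fuca2.
Ifitm3: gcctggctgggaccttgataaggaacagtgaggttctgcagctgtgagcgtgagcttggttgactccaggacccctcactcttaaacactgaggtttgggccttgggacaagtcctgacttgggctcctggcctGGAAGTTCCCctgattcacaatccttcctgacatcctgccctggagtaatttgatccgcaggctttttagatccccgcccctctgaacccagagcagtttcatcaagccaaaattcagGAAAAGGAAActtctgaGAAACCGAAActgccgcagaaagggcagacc
Cacnb3: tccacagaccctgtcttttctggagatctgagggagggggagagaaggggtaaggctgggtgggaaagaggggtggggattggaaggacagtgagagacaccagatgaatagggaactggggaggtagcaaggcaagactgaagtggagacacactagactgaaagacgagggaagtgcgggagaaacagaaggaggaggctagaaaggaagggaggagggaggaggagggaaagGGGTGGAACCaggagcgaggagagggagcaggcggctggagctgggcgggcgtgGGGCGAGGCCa
Irf8: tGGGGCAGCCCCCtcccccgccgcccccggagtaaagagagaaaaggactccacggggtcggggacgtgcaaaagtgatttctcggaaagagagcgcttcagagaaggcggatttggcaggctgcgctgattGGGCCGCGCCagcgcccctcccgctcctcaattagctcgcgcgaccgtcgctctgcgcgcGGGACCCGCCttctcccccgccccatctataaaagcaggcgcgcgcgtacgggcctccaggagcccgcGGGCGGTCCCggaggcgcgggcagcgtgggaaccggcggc
Fuca2: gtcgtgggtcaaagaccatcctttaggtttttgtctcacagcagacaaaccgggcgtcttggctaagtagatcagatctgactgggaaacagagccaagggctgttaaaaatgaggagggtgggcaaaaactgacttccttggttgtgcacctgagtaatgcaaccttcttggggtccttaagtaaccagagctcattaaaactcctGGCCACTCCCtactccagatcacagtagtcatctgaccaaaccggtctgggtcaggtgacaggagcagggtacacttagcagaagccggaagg
The Ifitm3 window held 2 response element cores just after the start, at positions 3 and 20, and 1 kappa B match at -116. The other windows held kappa B matches only. The response element core was present in 3.87% of the 4030 tested genes with an entry and in 3.49% of all 27025 promoters. It was present in 8 of the 90 blunted genes with an entry (8.89%) and in 2 of the 34 synergistic genes (5.88%). The short cAMP core stood in 36 of the 90 blunted genes, 8 of the 34 synergistic genes and 35.2% of the tested genes (20.9% of all promoters), and the full palindrome in 4, 1 and 3.60% of them (1.85% of all promoters). The kappa B pattern stood in 61 of the 90, in 25 of the 34, in 69.5% of tested genes and in 50.4% of all promoters. A match is a run of letters in this window and shows no binding.

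Irf8 was 1 of the 17 induced synergistic genes, all called higher with poly I:C in PGE2-treated cells, a direction that the class sets. In untreated cells the response was positive for 12 of the 17 and called for 11 in either direction. Havcr2, which encodes the checkpoint receptor TIM-3, averaged 270.1 ± 33.5 CPM in PGE2+poly I:C and 162 ± 20.2 in poly I:C cells. Havcr2 without poly I:C averaged 74.8 ± 14.7 CPM in PGE2 and 98.3 ± 18.7 in untreated cells (interaction 1.11, adjusted p = 0.00955). Lmnb1, the nuclear lamina protein lamin B1, averaged 219 ± 40.2 CPM in PGE2+poly I:C and 118 ± 45.2 in poly I:C cells. Lmnb1 without poly I:C averaged 113 ± 22.9 CPM in PGE2 and 163 ± 36.0 in untreated cells (interaction 1.43, adjusted p = 0.000208). Smchd1, a chromatin silencing factor, averaged 233 ± 37.7 CPM in PGE2+poly I:C and 131 ± 36.6 in poly I:C cells. Smchd1 without poly I:C averaged 94.8 ± 30.4 CPM in PGE2 and 123 ± 18.4 in untreated cells (interaction 1.18, adjusted p = 0.00549). In each of these 3, PGE2 was called higher under poly I:C and was not called without it. Hspa8, a constitutive HSP70 chaperone, had an interaction of 0.74 (adjusted p = 0.000298) and was the 1 cell stress gene called positive. Ciita, the master regulator of MHC class II genes, averaged 536 ± 50.5 CPM in PGE2+poly I:C and 321 ± 28.7 in poly I:C cells. Ciita without poly I:C averaged 297 ± 28.8 CPM in PGE2 and 299 ± 34.4 in untreated cells (interaction 0.77, adjusted p = 0.00672). Prdx6, a peroxiredoxin that was picked after its values were seen, had an interaction of 0.78 (adjusted p = 0.000524).

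Of 88 tested interferon-stimulated genes, 3 were called positive and 4 negative, beside 0.855% and 2.41% of all genes tested, and the median interaction was 0.09. Ly6a, also called Sca-1, averaged 2511 ± 222 CPM in PGE2+poly I:C and 1924 ± 123 in poly I:C cells. Ly6a without poly I:C averaged 1034 ± 104 CPM in PGE2 and 1203 ± 83.6 in untreated cells (interaction 0.61, adjusted p = 0.000428). Gbp2, a GTPase against intracellular pathogens, averaged 2347 ± 86.9 CPM in PGE2+poly I:C and 1247 ± 141 in poly I:C cells. Gbp2 without poly I:C averaged 209 ± 32.1 CPM in PGE2 and 167 ± 29.0 in untreated cells, and its interaction of 0.55 (adjusted p = 0.0466) was lost in 10 of 16 fits without 1 library (adjusted p up to 0.196, without untreated library D) and in 4 of 7 other settings (up to 0.166, with no filter on low counts). Icam1, the adhesion ligand of LFA-1 and the 1 positive call among NF-kB targets, averaged 3600.5 ± 148 CPM in PGE2+poly I:C and 3013 ± 312 in poly I:C cells. Icam1 without poly I:C averaged 176 ± 19.5 CPM in PGE2 and 219 ± 28.0 in untreated cells (interaction 0.56, adjusted p = 0.0239). Its call was lost without poly I:C library A (adjusted p = 0.0529), PGE2 library B (adjusted p = 0.0556), PGE2 library D (adjusted p = 0.0676) or untreated library C (adjusted p = 0.0968) and with no filter on low counts (adjusted p = 0.107) and in the fit over all 52 libraries (adjusted p = 0.0788).

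Dll4, a Notch ligand that shapes T helper responses, was detected mainly under poly I:C. It had 151, 77.9, 95.1 and 88.5 CPM in PGE2+poly I:C cells and 4.88, 0, 0 and 34.0 CPM in poly I:C cells. PGE2 cells held no count in any library, and untreated cells had 2.45, 2.55, 2.55 and 0 CPM. The PGE2+poly I:C mean was at least 46.4-fold higher than 3 counts over the whole PGE2 group, and the PGE2 effect under poly I:C was 3.21 (adjusted p = 2.03e-08). The interaction itself (adjusted p = 0.0492) has no estimable size because of the group at 0, and its call was lost in 14 of 16 fits without 1 library (adjusted p up to 0.114, without untreated library C) and in 3 of 7 other settings (up to 0.124, with no filter on low counts). The remaining synergistic induced genes of large size were Nup62, a nuclear pore protein, Fchsd2, a membrane-bending protein, and Prelid3b, a lipid transfer protein. Nup62 had an interaction of 1.55 (adjusted p = 0.0278), lost in 6 of 16 fits without 1 library (adjusted p up to 0.117, without PGE2 library A) and with no filter on low counts (adjusted p = 0.0858). Fchsd2 stood at 1.39 (adjusted p = 0.0434), lost in 10 of 16 fits without 1 library (adjusted p up to 0.23, without untreated library C) and in 4 of 7 other settings (up to 0.129, with no filter on low counts). Prelid3b stood at 1.06 (adjusted p = 0.0368), lost in 8 of 16 fits without 1 library (adjusted p up to 0.132, without poly I:C library B) and with DESeq2 (adjusted p = 0.0526) and with no filter on low counts (adjusted p = 0.11).

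All 27 repressed synergistic genes were called lower with poly I:C in PGE2-treated cells. In untreated cells the mean response was above 0 for 11 of them, and 14 were called in either direction. The class sets the direction of the response in PGE2-treated cells. With PGE2 under poly I:C, 19 of the 27 were called lower in PGE2+poly I:C than in poly I:C cells and 2 higher. Over all genes tested, 5.62% were lower and 5.04% higher. The sorting rule selects these genes for a lower PGE2 effect under poly I:C than without it, so the counts are no result of their own. Lyz2 (chr10:117277331-117282321, minus strand), lysozyme of myeloid cells, had 284, 297, 304 and 265 CPM in PGE2+poly I:C cells and 434, 513, 477 and 324 CPM in poly I:C cells. It had 1341, 1180.5, 1602 and 1272 CPM in PGE2 cells and 891, 778, 1109 and 979 CPM in untreated cells. PGE2+poly I:C libraries were all below poly I:C libraries, and PGE2 libraries all above untreated ones. The PGE2 effect was -0.60 (adjusted p = 0.000569) under poly I:C and 0.52 (adjusted p = 2.74e-05) without it, with an interaction of -1.12 (SE 0.17, adjusted p = 1.73e-07). Lyz2 is also a macrophage marker and was the 1 called of the 4 tested members of a macrophage and monocyte list of 20, beside 3.27% called over all genes tested. Of that list 17 were in the table, 3 of them with no count at 24 h. It summed to 382 to 431 CPM in PGE2+poly I:C cells, 426 to 601 in poly I:C cells, 1617 to 1938 in PGE2 cells and 1082 to 1476 in untreated cells, and the part of such cells in the Lyz2 result was not tested.

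Fuca2, a fucosidase, averaged 11.6 ± 10.4 CPM in PGE2+poly I:C and 72.8 ± 14.4 in poly I:C cells. Fuca2 without poly I:C averaged 51.6 ± 28.7 CPM in PGE2 and 62.2 ± 18.9 in untreated cells (interaction -2.25, adjusted p = 0.00521). Wdr81, which acts in endosome maturation, held no count in the 4 PGE2+poly I:C libraries, against 19.5, 9.77, 19.7 and 0 CPM in poly I:C cells. It had 25.9, 56.5, 51.1 and 27.0 CPM in PGE2 cells and 31.8, 7.65, 30.6 and 33.03 CPM in untreated cells, and the mean of PGE2 cells was at least 13.7-fold higher than 3 counts over the PGE2+poly I:C group. Its interaction had an adjusted p of 0.00745 and no estimable size. Cpt1a, the gate of fatty acid oxidation, stood at -2.34 (adjusted p = 0.0264) and was lost in 6 of 16 fits without 1 library (adjusted p up to 0.362, without poly I:C library C) and with DESeq2 (adjusted p = 0.058) and with no filter on low counts (adjusted p = 0.0916). Genes picked after their values were seen included Fermt3, an integrin activator of blood cells, at 44.5 ± 5.38 CPM in PGE2+poly I:C and 117 ± 34.6 in poly I:C cells. Fermt3 without poly I:C averaged 317 ± 35.3 CPM in PGE2 and 225 ± 44.1 in untreated cells (interaction -1.85, adjusted p = 3.42e-06). Vim, the intermediate filament vimentin, averaged 2149 ± 183 CPM in PGE2+poly I:C and 3039.6 ± 213 in poly I:C cells. Vim without poly I:C averaged 3619 ± 323 CPM in PGE2 and 3165 ± 111 in untreated cells (interaction -0.69, adjusted p = 2.5e-06). Cfp, the complement protein properdin, was raised by PGE2 in both settings, at 271 ± 40.7 CPM against 137 ± 12.4 in poly I:C cells and at 779.7 ± 80.1 CPM against 197 ± 18.4 in untreated cells (interaction -0.98, adjusted p = 0.00192).

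Of 13 tested genes of MHC class II presentation, 3 were called, 4 in DESeq2, and 9 had an unadjusted p below 0.05. Over all genes these counts were 172 of 5263 (0.855% positive and 2.41% negative), 141 of 5463 in DESeq2 and 752 of 5263. Ciita was called positive, and Ctss, a protease that trims the invariant chain, and H2-DMa, which loads peptides, negative. Ctss averaged 1075 ± 174 CPM in PGE2+poly I:C and 775 ± 85.5 in poly I:C cells. Ctss without poly I:C averaged 1453 ± 81.4 CPM in PGE2 and 661 ± 65.9 in untreated cells (interaction -0.68, adjusted p = 0.000715). H2-DMa averaged 669 ± 33.3 CPM in PGE2+poly I:C and 909 ± 90.8 in poly I:C cells. H2-DMa without poly I:C averaged 1371 ± 75.5 CPM in PGE2 and 1270.4 ± 34.4 in untreated cells (interaction -0.55, adjusted p = 0.00745), and lost its call without poly I:C library D (adjusted p = 0.0605) and with no filter on low counts (adjusted p = 0.218) and in the fit over all 52 libraries (adjusted p = 0.059). Of 21 MHC class I genes, 1 was called, near the share of all genes, H2-K1, a classical class I heavy chain whose reads the counting could have split with its relatives. H2-K1 averaged 2318 ± 165 CPM in PGE2+poly I:C and 1979 ± 71.3 in poly I:C cells. H2-K1 without poly I:C averaged 458 ± 31.6 CPM in PGE2 and 275 ± 44.5 in untreated cells (interaction -0.51, adjusted p = 0.0277). Its call was lost in 8 of 16 fits without 1 library (adjusted p up to 0.114, without untreated library D) and in 3 of 7 other settings (up to 0.372, with no filter on low counts).

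The 11 reversed genes were mostly scarce. Trp53i11, a target of p53, averaged 100.4 ± 37.9 CPM in PGE2+poly I:C and 37.7 ± 10.8 in poly I:C cells. Trp53i11 without poly I:C averaged 61.4 ± 10.5 CPM in PGE2 and 89.7 ± 17.7 in untreated cells. Poly I:C thus went with a response of 0.72 in PGE2-treated cells and of -1.21 in untreated cells (interaction 1.93, adjusted p = 0.000369). Nrros, a regulator of reactive oxygen in myeloid cells, and Taok3, a kinase, were picked after their values were seen and had interactions of 1.23 (adjusted p = 0.00175) and 1.41 (adjusted p = 0.002). Hvcn1, a proton channel, stood at 2.61 (adjusted p = 0.0233) and was lost without PGE2+poly I:C library D (adjusted p = 0.0611), poly I:C library D (adjusted p = 0.0954), PGE2 library A (adjusted p = 0.0508) or untreated library C (adjusted p = 0.0841) and with no filter on low counts (adjusted p = 0.0681). Ttyh3, an anion channel, stood at 2.56 (adjusted p = 0.0278) and was lost in 7 of 16 fits without 1 library (adjusted p up to 0.0901, without PGE2 library A) and with no filter on low counts (adjusted p = 0.0806) and in the fit over all 52 libraries (adjusted p = 0.0549). Ms4a6c, a membrane protein of myeloid cells, stood at 1.57 (adjusted p = 0.0157) and was lost without PGE2+poly I:C library D (adjusted p = 0.102). Negative were Mfsd12, a lysosomal transporter, at -1.78 (adjusted p = 0.0174), and Camta2, a transcription activator, at -1.69 (adjusted p = 0.0338). Mfsd12 was lost without PGE2+poly I:C library B (adjusted p = 0.0673) or poly I:C library D (adjusted p = 0.0633) and with no filter on low counts (adjusted p = 0.0909), and Camta2 in 7 of 16 fits without 1 library (adjusted p up to 0.135, without poly I:C library A) and in 3 of 7 other settings (up to 0.157, with no filter on low counts).

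None of the 10 tested cytokines passed in edgeR or in DESeq2, and 1 had an unadjusted p below 0.05; with 3.27% of all genes called, a count of 0 is near the background. The 1 was Lta, lymphotoxin alpha, named after its values were seen, with 87.8, 59.3, 52.3 and 42.6 CPM in PGE2+poly I:C cells and 215, 151, 122 and 151 CPM in poly I:C cells. It had 6 counts in all in PGE2 cells and 1 in untreated cells, and its interaction had an adjusted p of 0.0523 and is given without a size. Il12b, a subunit of interleukin-12, had 3547, 3449, 3068 and 2448 CPM in PGE2+poly I:C cells and 3127, 3814, 3608 and 3199.7 CPM in poly I:C cells, which overlapped, and 56.6 ± 12.4 CPM in PGE2 and 50.03 ± 17.2 in untreated cells. Its interaction was -0.33 with a 95% interval of -0.81 to 0.16. Tnf, an inflammatory cytokine, was lower in PGE2+poly I:C cells (249 ± 21.3 CPM) than in poly I:C cells (393 ± 94.7 CPM; adjusted p = 0.00359), but its interaction interval of -1.21 to 0.92 was wide, as it was at 13.2 ± 3.86 CPM in PGE2 and 19.1 ± 10.4 CPM in untreated cells. Il1b, interleukin-1 beta, was higher with PGE2 in both settings, at 226 ± 23.9 CPM against 64.1 ± 31.5 in poly I:C cells and at 47.2 ± 24.3 CPM against 17.9 ± 4.96 in untreated cells, with an interaction interval of -0.49 to 1.39. Il6, interleukin-6, had an interval of -1.83 to 2.11.

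Transcripts of the interferon-induced chemokine genes Cxcl9, Cxcl10 and Cxcl11 were lower with PGE2 under poly I:C, yet none was called for the interaction. The products of Cxcl9 and Cxcl10 attract T cells through CXCR3, while GENCODE lists mouse Cxcl11 as a polymorphic pseudogene. Cxcl9 had 2497, 3019, 3144 and 2543 CPM in PGE2+poly I:C cells and 4561, 4957, 4738 and 4501 CPM in poly I:C cells. All 4 libraries with PGE2 lay below all 4 without, at a PGE2 effect of -0.74 (adjusted p = 1.25e-05). Without poly I:C, Cxcl9 averaged 14.5 ± 7.54 CPM in PGE2 and 28.6 ± 27.2 in untreated cells, and the interaction of 0.04 had an interval of -0.66 to 0.74. Cxcl10 had a PGE2 effect of -0.38 under poly I:C and an interaction interval of -0.34 to 1.00. Cxcl11, with 2 counts in PGE2 and 1 in untreated cells, had a PGE2 effect of -0.78 under poly I:C and an interaction interval of -4.38 to 1.17. Ccl5, a T cell chemokine, had an interval of -0.42 to -0.03, not adjusted for the number of genes, and was not called (adjusted p = 0.227). Ccl17, a ligand of CCR4, had one of -0.41 to 0.25. Ccl3, a close relative of Ccl4, was not tested because of its low counts, at 10.6 ± 8.89 CPM in PGE2+poly I:C and 7.79 ± 2.82 in poly I:C cells. Ccl3 without poly I:C averaged 2.63 ± 3.63 CPM in PGE2 and 3.91 ± 2.50 in untreated cells.

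For interferons the interaction could not be estimated, since the cells held no count of them without poly I:C. The lambda interferons Ifnl2 and Ifnl3, near-identical paralogs that may share reads and are outside the naming rule, were lower with PGE2 under poly I:C. Ifnl2 had 29.3, 18.5, 9.51 and 6.56 CPM in PGE2+poly I:C cells and 224, 200.2, 78.8 and 60.4 CPM in poly I:C cells. Ifnl3 had 29.3, 22.2, 19.02 and 9.83 CPM in PGE2+poly I:C cells and 117, 171, 86.7 and 49.0 CPM in poly I:C cells. Every PGE2+poly I:C library lay below every poly I:C library for both genes, and the PGE2 effect was -3.09 for Ifnl2 (adjusted p = 1.71e-09) and -2.37 for Ifnl3 (adjusted p = 2.08e-06). Ifnb1, interferon beta, was not tested and had 11 counts in poly I:C cells, all in libraries B and C, and none in PGE2+poly I:C, PGE2 or untreated cells. Il10, interleukin-10, had 1 count in the 16 libraries.

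Downstream of interferon, intervals for the interaction were -0.52 to 1.20 for Isg15, a ubiquitin-like modifier, -1.69 to 0.53 for Ifit1, which binds viral RNA, and -0.44 to 1.16 for Irf7, the amplifier of interferon production. Ifit2, a relative of Ifit1, had a wide one of -0.56 to 2.96, with 2 counts in PGE2 cells. None of the 13 tested genes of double-stranded RNA sensing was called in edgeR or DESeq2, and 0 had an unadjusted p below 0.05. No call among 13 is near the 3.27% called over all genes. Tlr3 itself was too scarce to test, at 4.09 ± 3.07 CPM in PGE2+poly I:C and 2.91 ± 3.76 in poly I:C cells. Tlr3 without poly I:C averaged 16.6 ± 6.35 CPM in PGE2 and 28.6 ± 17.4 in untreated cells.

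Among costimulatory genes, Cd40, the receptor for T cell help, was lower with PGE2 under poly I:C, at 1293 ± 107 CPM against 1801 ± 214 in poly I:C cells, and not called without it, at 30.0 ± 7.07 CPM against 21.7 ± 14.2 in untreated cells. Its interaction of -0.94 (95% interval -1.63 to -0.24, adjusted p = 0.139) was called without untreated library D, at an adjusted p of 0.0396. Cd86, a ligand of CD28, had an interaction of -0.54 (95% interval -0.90 to -0.19, adjusted p = 0.0746), which was called without PGE2 library B (0.0484), without untreated library C (0.0456) and without untreated library D (0.0494). Cd83, a maturation marker, was higher with PGE2 in both settings. Its interval of -0.70 to -0.03 is not adjusted for the number of genes, and its interaction was not called. Cd274, which encodes PD-L1, had an interval of -1.96 to 0.36, Nfkbia, the NF-kB inhibitor, one of -0.38 to 0.22 and Socs3, a cytokine inhibitor, one of -1.13 to 0.59.

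No interaction was called among 10 tested genes of the prostaglandin system, in edgeR or in DESeq2, and 1 had an unadjusted p below 0.05. No call among 10 is again near the 3.27% over all genes. Ptger4, which encodes EP4, averaged 142 ± 28.7 CPM in PGE2+poly I:C and 142 ± 8.08 in poly I:C cells. Ptger4 without poly I:C averaged 13.4 ± 9.12 CPM in PGE2 and 11.9 ± 3.58 in untreated cells, with an interval of -1.12 to 1.10. Ptger2, which encodes EP2, was not tested, at 5.03 ± 2.31 CPM in PGE2+poly I:C and 1.22 ± 2.44 in poly I:C cells. Ptger2 without poly I:C averaged 12.4 ± 5.10 CPM in PGE2 and 10.0 ± 4.05 in untreated cells. Nr4a1, an immediate target of cAMP signalling, was not tested either, with 2 counts in PGE2+poly I:C, 2 in poly I:C, 5 in PGE2 and 2 in untreated cells. Of 15 genes of cholesterol synthesis none was called in edgeR or DESeq2 (1 at an unadjusted p below 0.05), and of 34 proliferation genes 1 was, Ccnd2. Both counts are near the 3.27% called over all genes.

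**Figure D4:**
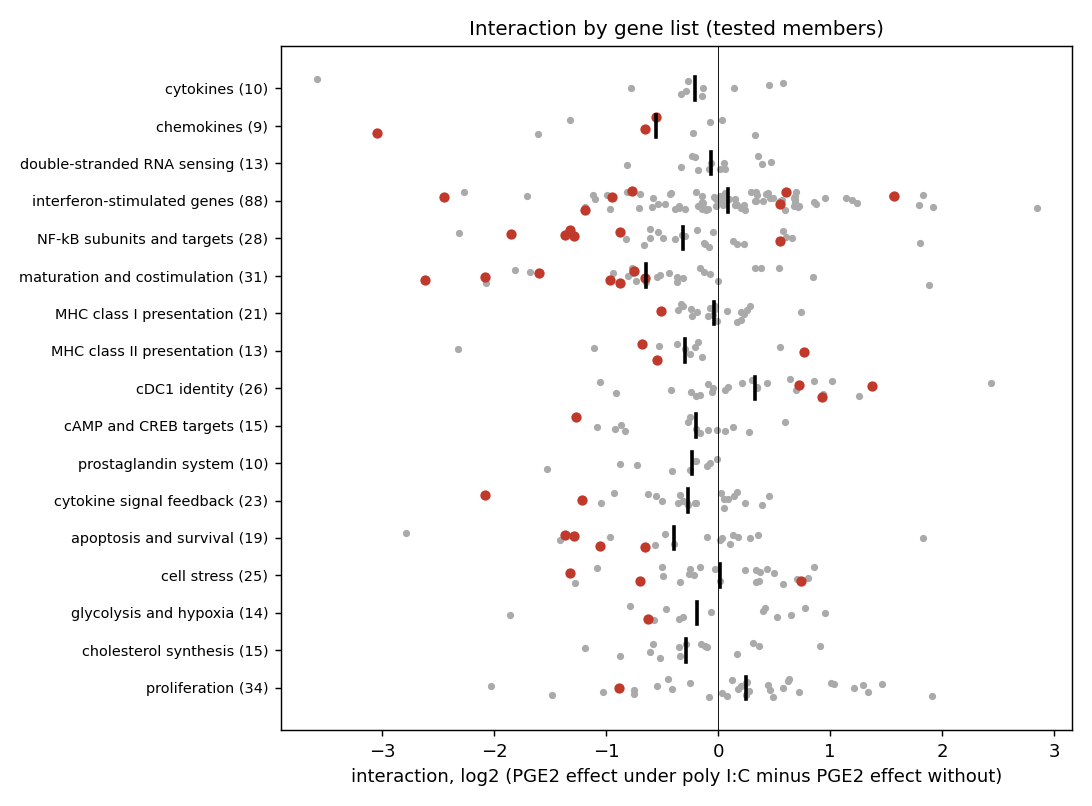
Interaction on the log2 scale (PGE2 effect under poly I:C minus PGE2 effect without) for the tested members of each gene list, with the number tested in brackets; red points were called, grey points were not, and black bars are list medians. The maturation and costimulation list has 7 red points, all negative, the cDC1 identity list 3, all positive, and the cytokine list none.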

How the data were processed

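Bulk 3' libraries of sorted cDC1 were made with barcoded primers carrying UMIs and sequenced on a NextSeq 500, per the labels' protocols. The deposited table holds UMI counts per gene, 1 column per library, made by the authors with the Drop-seq pipeline on GRCm38 with Ensembl release 75, per the labels. DESeq2 1.14.1 and the build GRCm38.p6 are named in the submitters' processing notes. Neither aligner nor strand setting is given in the sources used here, and reads of an antisense or overlapping gene may therefore be counted with its partner. Of 23136 lines, 1 with a text entry was left out, and 20 lines with dates for symbols (0.105% of counts) were named in no result.

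The 16 libraries at 24 h were fitted together with edgeR 4.0.16 (R 4.3.3; quasi-likelihood test, TMM, filterByExpr by group, robust), which tested 5263 genes with Benjamini-Hochberg adjustment. Every adjusted p comes from that fit unless another is named. Levels used for the classes had 2 CPM added before the log2. The members, gene lists and named genes were chosen with earlier results of these data known. Named by rule were the called genes of at least 20 mean CPM in 1 group with the largest interaction (10 blunted and 10 synergistic, each 7 induced and 3 repressed where there were that many, and 6 reversed), 36 fixed genes (1 is not reported here) and up to 4 called members per list and direction. A library's 0 allows 3 counts, a floor that covers counting error only, and the intervals of interactions are 95% intervals of the fit, which include the spread between libraries. Libraries of 1 group differed beyond counting noise (chi-square per degree of freedom 1.41 to 2.01 over 24 pairs). The fit was tested on simulated data first. The 4 h libraries (5744 genes tested) were fitted separately. The alternatives were DESeq2 1.42.0, other scalings and filters, the replicate letter as a block, all 52 libraries, and leaving out each of the 16 libraries.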

Additional observations from a re-analysis of the deposited data

Results flagged for a closer look

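The PGE2 effect differed with poly I:C for 172 genes by the interaction test in edgeR, as described above. Besides, groups of 4 libraries were checked for the named genes and for the library totals. Of the 287 checked, 7 had 1 library far from the other 3 (Dixon's test at 95%), fewer than the 5% that chance gives. For Wdr81, untreated library B had 7.6538 CPM, against 30.6 to 33.025 in the others. For Il1b, PGE2+poly I:C library D had 190.1 CPM, against 233.04 to 241.06. For Cxcl9, untreated library D had 69.052 CPM, against 12.243 to 20.4. For Gbp2, untreated library D had 210.16 CPM, against 147.9 to 155.63. For H2-K1, poly I:C library B had 2085.3 CPM, against 1935.6 to 1953.6. For H2-DMa, PGE2 library D had 1483.1 CPM, against 1324 to 1346.2. For Pkm, untreated library D had 567.43 CPM, against 683.41 to 695.4. Of the 7, untreated library D supplied 3.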

How the results depend on the processing

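The 172 interaction calls became 81 with no filter on low counts (74 shared, 17391 genes tested) and 112 in the fit over all 52 libraries (107 shared); the cause was not tested. Other settings gave 141 (DESeq2) to 197 (replicate block). Pairing of the samples by letter was weak at most, with correlations of deviations from -0.03 to 0.08 over 24 pairs. Best with their own letter among 4 candidates were 12 of the 24, more than random letters would give on average. Whether the letters stand for paired samples was not settled. Of the 172 calls, 171 were shared with the replicate block fit. Leaving out 1 library gave 127 to 169. Read from the PGE2 effects, the classes held 62 blunted, 85 synergistic and 25 reversed genes. With an interaction of at least 1.5 they held 34, 9 and 6. With no minimum size for a reversal, 28 were synergistic and 41 reversed, and with a size of 1, 0 were reversed. As a difference of mean CPM, chosen after seeing the data, 107 of the 127 negative interactions stayed negative. Of 58 named genes that were called, 25 kept the call under up to 23 alternatives each and 33 lost it under at least 1. At the median total, 3 counts limit what a library's 0 can show.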
